A study of Mus musculus with 32 samples.

Results

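The 42 genes described here make and assemble ribosomes or form the nucleolus. They were chosen by name, as genes of ribosomal RNA synthesis and processing driven by the transcription factor Myc. The choice used no measured value as a rule, but it was made with earlier results of these data known. They are 42 of the 23517 genes of the count table, and all 42 passed the filter on low counts in every comparison. Their RNA was measured in Lgr5-EGFP+ progenitor cells sorted from mouse colonoids, epithelial organoids grown from crypts of the proximal colon in L-WRN medium, which supplies Wnt, R-spondin and noggin. All 8 mice carried the Lgr5-EGFP-IRES-CreERT2 allele, in which the Lgr5 promoter drives EGFP and an inducible Cre, so that stem and progenitor cells fluoresce. Colonoids of each mouse were left untreated (UT) or were given bethanechol (Bch), which activates muscarinic acetylcholine receptors without preference for a subtype, at 250 nM in fresh medium every day for 4 days. Per mouse and treatment, 2361 to 13114 sorted cells were profiled in 2 technical replicates, 32 libraries in all. The largest number was that of the UT cells of mouse BR1, against 3504 in its Bch cells, and all others had at most 3000. Levels are given in CPM, counts of unique molecular identifiers (UMIs) summed over the technical replicates and scaled to library size by TMM.

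The mice fell into 2 sets of 4. BR1 to BR4 are labelled male, their RNA is described as that of sorted Lgr5+ cells, and it was isolated with the RNeasy Plus Micro kit. BR7 to BR10 carry no sex in their labels, although 4 of the 8 animals are female by the study design. Their source is given as colonic organoids and their kit as RNeasy Mini. Sex, kit and source therefore cannot be told apart between the sets, and Bch was compared with UT within each set, with the mouse as a block.

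The sums held 557512 UMIs (BR3, UT) to 4050342 UMIs (BR8, Bch). These 2 pairs were uneven in depth, with 1991111 UMIs in Bch cells of BR3 and 1622402 UMIs in UT cells of BR8. A count of 0 allowed a level of 5.38 CPM in the shallowest sum and 0.741 CPM in the deepest, limits that cover counting error only. Lgr5 itself was at 12.5 to 38.9 CPM, and the 12 stem and progenitor markers summed to 734 to 1141 CPM per sum. Markers of other epithelial cells were present as well. The 8 goblet cell markers summed to 1950 to 6179 CPM and the 10 colonocyte markers to 678 to 1914 CPM, whereas 5 immune markers reached at most 11.6 CPM with Cd79a at 0 in UT cells of both sets. In such bulk samples, fewer cells of a type and less RNA per cell cannot be told apart.

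Ribosomes are assembled in the nucleolus around ribosomal RNA that RNA polymerase I transcribes from repeated genes. Small nucleolar ribonucleoproteins (snoRNPs) of the box C/D and box H/ACA classes guide its methylation and pseudouridylation, the small-subunit processome folds and cuts the precursor of the 40S subunit, and separate sets of factors build the 60S subunit and export both. In the intestinal crypt this work is linked to growth and division of progenitor cells, and the transcription factor Myc, which binds the E-box CACGTG, is a known activator of many of these genes.

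The E-box was searched in the promoters of the list, taken from RefSeq on GRCm38.p6 as windows from 250 bases before to 50 bases after the start of transcription. Of the 42 genes, 36 had an entry, and those without one were Npm1, Fbl, Bop1, Rrp12, Rrs1 and Tcof1. The letters CACGTG, which read the same on both strands, occurred in 9 of the 36 genes (25.0%), each with 1 copy, against 12.6% of the 6839 tested genes with an entry and 7.15% of all 32851 windows of this length. These 9 were Imp4, Ltv1, Mybbp1a, Nop2, Pes1, Tsr1, Utp20, Utp4 and Wdr43. Only in Imp4 and Nop2 did the letters lie before the start, 121 and 60 bases away, and for these the 250 bases upstream are shown 5′ to 3′ on the gene's strand with the E-box in capitals.
Imp4, plus strand, chr1:34439579-34439828: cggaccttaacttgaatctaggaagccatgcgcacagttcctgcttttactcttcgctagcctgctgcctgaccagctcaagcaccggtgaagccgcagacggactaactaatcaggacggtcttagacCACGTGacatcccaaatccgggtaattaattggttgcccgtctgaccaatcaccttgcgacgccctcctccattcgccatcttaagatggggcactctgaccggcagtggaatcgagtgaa
Nop2, plus strand, chr6:125131633-125131882: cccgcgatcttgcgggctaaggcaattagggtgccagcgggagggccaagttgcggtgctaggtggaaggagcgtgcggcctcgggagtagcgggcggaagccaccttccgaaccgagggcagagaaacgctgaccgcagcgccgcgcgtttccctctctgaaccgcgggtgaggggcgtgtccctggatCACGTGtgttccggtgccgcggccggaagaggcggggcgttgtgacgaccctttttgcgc

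In the other 7 genes the E-box lay just after the start. The bases around it are shown in the same way for the 3 of them whose levels are given mouse by mouse, at 17 bases for Wdr43, 37 for Utp20 and 40 for Mybbp1a.
Wdr43, plus strand, chr17:71616220-71616249: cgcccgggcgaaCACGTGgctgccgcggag
Utp20, minus strand, chr10:88826765-88826789: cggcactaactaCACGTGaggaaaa
Mybbp1a, plus strand, chr11:72441355-72441376: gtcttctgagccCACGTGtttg

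Among BR7 to BR10, the 9 genes with the letters had a median log2 fold change with Bch of -0.10 and 3 were higher, while the 27 with an entry but no match had a median of -0.06 and 11 were higher. Among BR1 to BR4 the medians were -0.03 with 4 of 9 higher and -0.03 with 12 of 27 higher. These shares were not tested against each other, and a match describes the sequence only. Since the list was chosen as genes driven by Myc, its share of E-boxes is not independent of that choice.

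UMIs counted at the 3′ end stand for molecules and do not scale with transcript length, although the level of a gene also depends on how reads shared with other genes were assigned. In UT cells of all 8 mice, the list spanned 5.30 CPM for Rrp12 to 909 CPM for Npm1, the nucleolar chaperone nucleophosmin. Nhp2 (898 CPM) and Nop10 (735 CPM), small subunits of the box H/ACA snoRNP, and Ncl (449 CPM), which encodes the abundant nucleolar RNA-binding protein nucleolin, followed Npm1. The difference between Npm1 and Nhp2 was smaller than the spread of Npm1, which ranged from 805 to 1085 CPM over the UT sums. At the other end, Utp20 (7.94 CPM), a large scaffold of the processome, and Polr1b (7.73 CPM), the second largest subunit of RNA polymerase I, were near the level of a few UMIs in the shallowest sum. The coefficient of variation over the 4 UT mice had a median of 14.9% in BR1 to BR4 and 17.0% in BR7 to BR10, from 2.56% for Nop10 in the former to 80.8% for Rrp12. Added together, the list took 5754 to 6064 CPM in UT cells of BR1 to BR4 and 5245 to 5981 CPM in those of BR7 to BR10. With Bch the TMM-scaled sum was lower in 4 of 4 mice of BR7 to BR10, at 4918 CPM after 5245 CPM in UT cells of BR7, 5150 after 5391 CPM in BR8, 5554 after 5686 CPM in BR9 and 5468 after 5981 CPM in BR10. For BR1 to BR4 it was lower in BR1 (5513 after 5754 CPM) and higher in BR2 (6149 after 5855 CPM), BR3 (6073 after 5854 CPM) and BR4 (6127 after 6064 CPM). The direction in 2 mice turned with the scaling. As a share of all UMIs, without TMM, the list was lower with Bch in BR7 and BR10 but higher in BR8 (0.537% after 0.517%) and BR9 (0.579% after 0.560%). These sums were not tested, and they weigh the genes by level, so that Npm1, Nhp2 and Nop10 count most.

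Bch left no gene of the list past the threshold, an adjusted p of 0.05 in edgeR's quasi-likelihood test over all tested genes. For BR7 to BR10, 0 of 42 passed, where 0% of all 9515 tested genes passed, and 0 of 42 had an unadjusted p under 0.05, where 3.78% of all genes did. DESeq2 also called 0 of the 42 at either level. For BR1 to BR4, 0 of 42 passed against 0.0210% of 9509 genes, and 2 of 42, Polr1c and Gnl3, had an unadjusted p under 0.05 against 7.72% of all genes, while DESeq2 gave 0 at either level. Over all 8 mice, 0 of 42 passed (0% of 10280 genes) and 1 of 42, Nop14, had an unadjusted p under 0.05 (5.40% of all genes). The difference of the Bch effect between the sets passed for 0 of 42 (0% of 10280 genes) and had an unadjusted p under 0.05 for Gnl3 alone (4.39% of all genes).

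These comparisons had a median standard error of 0.175 on the log2 scale in BR7 to BR10 and 0.143 in BR1 to BR4. The 95% confidence interval of the fold change lay within 2-fold in either direction for 40 and 41 of the 42 genes, and within 1.5-fold for 30 and 33. Intervals reaching past 2-fold belonged to Polr1a and Rrp12 in BR7 to BR10 and to Rrp12 in BR1 to BR4.

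**Figure D1:**
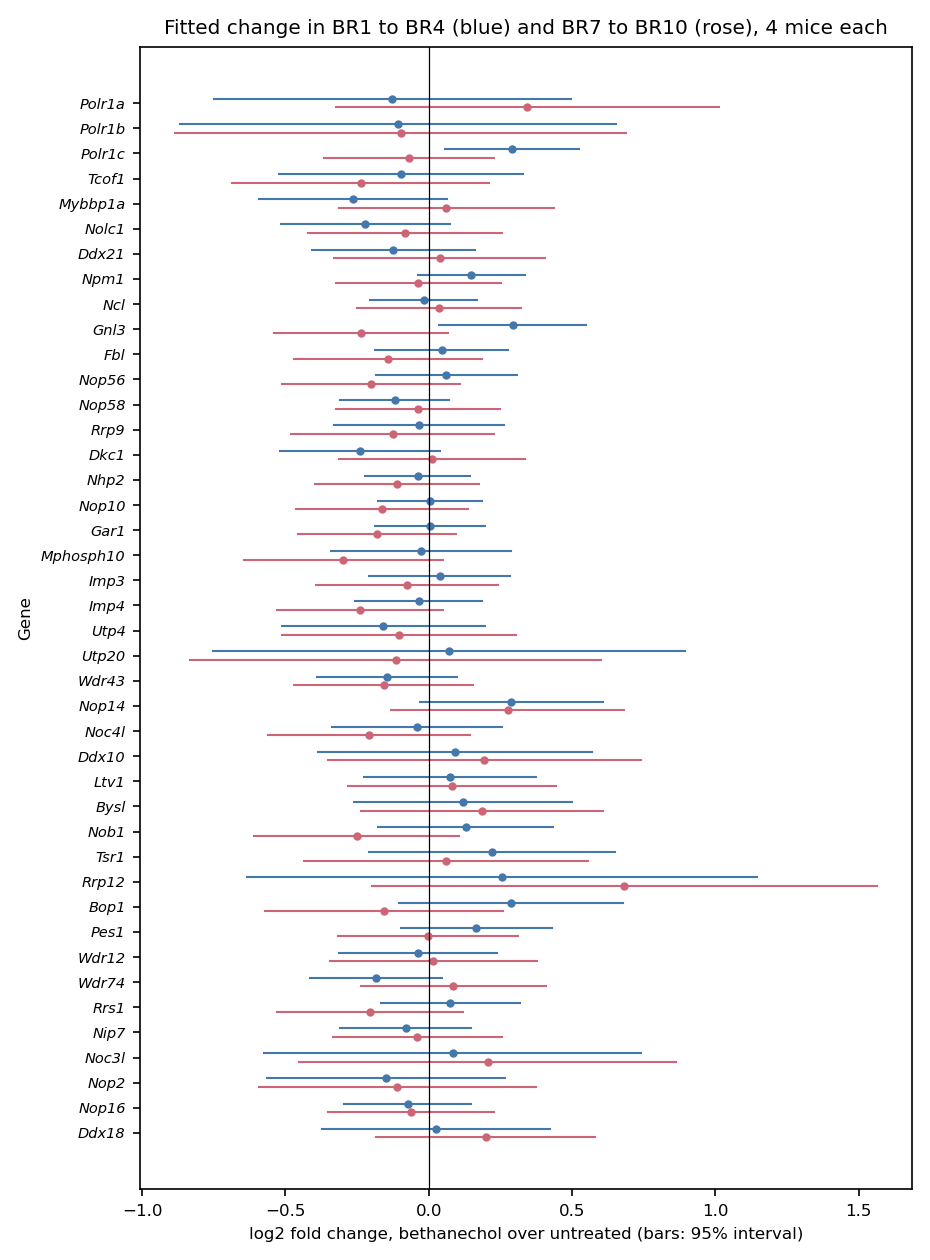
Fitted log2 fold change of Bch over UT (x axis) for each of the 42 genes (y axis, ordered by role), as points with 95% confidence intervals, for BR1 to BR4 (blue) and BR7 to BR10 (rose), 4 mice each. In BR1 to BR4 the intervals of Polr1c and Gnl3 lie above 0, and in BR7 to BR10 every interval crosses 0.

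Within BR7 to BR10, 15 of the 42 genes were higher and 27 lower with Bch, with a median log2 fold change of -0.07 against -0.00224 over all tested genes, of which 49.5% were higher. Within BR1 to BR4, 21 were higher and 21 lower, with a median of -0.01. Over all 8 mice 15 were higher and 27 lower (median -0.06). Across BR7 to BR10 the UT and Bch values overlapped for each of the 42 genes, while 1.25% of all tested genes lay wholly higher and 0.904% wholly lower with Bch. Among BR1 to BR4 they overlapped for 41, the exception being Polr1c, which lay wholly higher with Bch. In this set 1.50% of all tested genes lay wholly higher and 1.35% wholly lower, so that 1 of 42 is near the background.

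Pair by pair, BR10 stood apart. In BR7, BR8 and BR9, 22, 23 and 23 of the 42 genes were higher with Bch and the medians of their log2 ratios were 0.04, 0.02 and 0.05. In BR10, 6 were higher and 36 lower, with a median of -0.30, while the median over all tested genes in this mouse was -0.00182. Of the 42 genes, 24 had their lowest ratio of the 4 mice in BR10, compared with 26.9% of all tested genes. Without BR10, the fitted median of the set was 0.02 with 24 genes higher, so that the excess of lower genes by count in BR7 to BR10 rested on this mouse. For BR1 to BR4 the pairs varied to either side, with 12, 19, 28 and 22 genes higher in BR1, BR2, BR3 and BR4 and medians of -0.09, -0.03, 0.09 and 0.02.

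**Figure D2:**
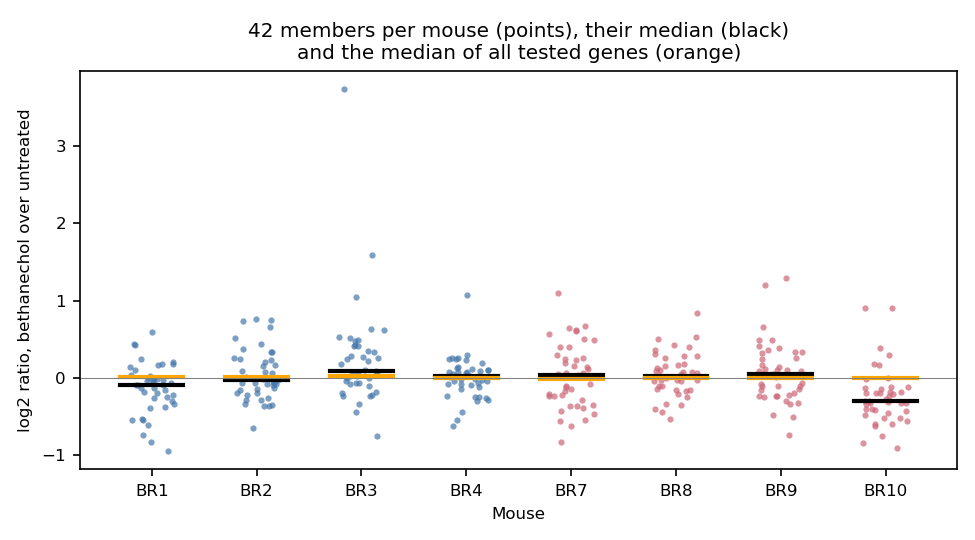
log2 ratio of Bch over UT (y axis) in each mouse (x axis) for the 42 genes (points, blue for BR1 to BR4 and rose for BR7 to BR10), with the median of the 42 genes (black bar) and of all tested genes (orange bar). The BR10 median of -0.30 lies below those of the other 7 mice, and the point above 3 in BR3 is Rrp12, which had 0 UMIs there in UT cells, so that its ratio depends on the prior count of 2.

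Other lists differed in BR10 as well. The 20 cycling cell genes had a median log2 ratio of -0.34 with 3 higher, and their sum was 2164 CPM in UT and 1740 CPM in Bch cells. The 8 goblet cell markers had a median of 0.93 with 7 higher, and their sum was 2185 CPM in UT and 4174 CPM in Bch cells, and the 6 tested colonocyte markers had a median of 0.59 with 6 higher. Ribosomal protein genes (79 of 87 higher, median 0.41) and mitochondrially encoded genes (15 of 15 higher, median 0.66) were higher in the Bch cells of this mouse, as were 8 of 9 dissociation genes (median 0.51) and 6 of 8 enteroendocrine markers (median 0.57). Of 10 tested stem and progenitor markers, 7 were lower (median -0.23), and the sum of the list was 875 CPM in UT and 752 CPM in Bch cells. BR9 differed in the opposite direction for several of these lists, with 16 of 20 cycling genes higher (median 0.25), 14 of 15 mitochondrially encoded genes lower (median -0.42), 6 of 6 colonocyte markers lower (median -0.46) and 8 of 9 dissociation genes lower (median -0.56), while 23 of the 42 genes were higher there. The part of these differences in the lower levels of the 42 genes was not tested.

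**Figure D3:**
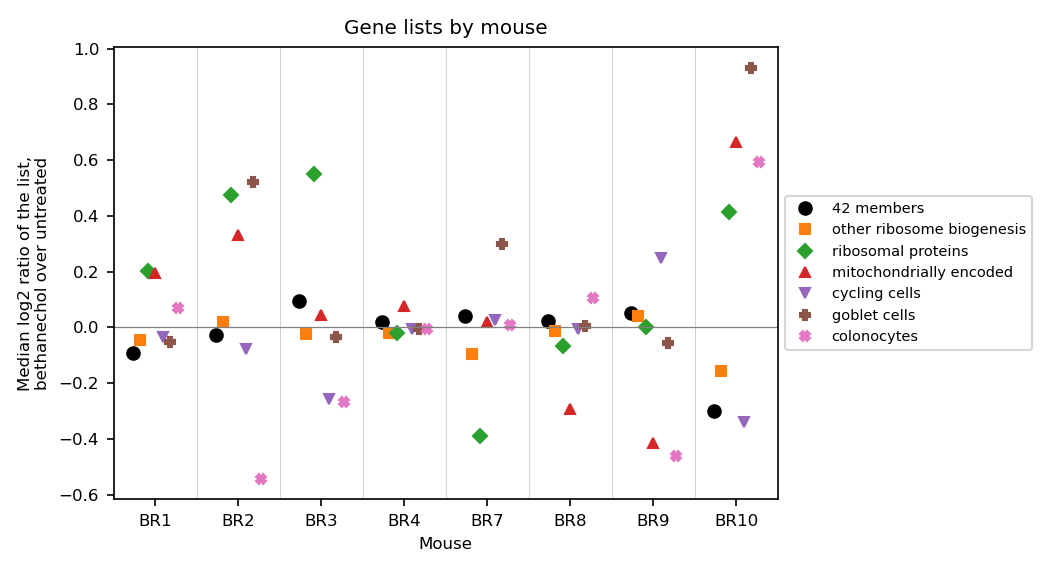
Median log2 ratio of Bch over UT (y axis) in each mouse (x axis) for the 42 genes, the other ribosome biogenesis genes, ribosomal protein genes, mitochondrially encoded genes and the markers of cycling cells, goblet cells and colonocytes, 1 symbol per list. In BR10 the 42 genes (-0.30), the other ribosome biogenesis genes (-0.16) and the cycling genes (-0.34) lie below 0 and the remaining lists above it.

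Transcription of ribosomal RNA is represented by 7 genes, 3 subunits of RNA polymerase I (Polr1a, Polr1b and Polr1c, the last shared with RNA polymerase III) and the nucleolar regulators Tcof1, Mybbp1a, Nolc1 and Ddx21. With Bch, 3 of the 7 were higher in BR7 to BR10 and 1 of 7, Polr1c, in BR1 to BR4. Polr1c lies on chromosome 17 (46243920 to 46248054, GRCm38). It was at 96.7, 95.7, 115 and 104 CPM in UT cells of BR1, BR2, BR3 and BR4, and at 129.9, 121, 122 and 124 CPM with Bch. Every Bch value lay above every UT value, which held for 1.50% of all tested genes, with 1.35% wholly lower. The fitted log2 fold change was 0.29 ± 0.12 (standard error), with an unadjusted p = 0.0164 and an adjusted p = 0.510 in edgeR. In BR7, BR8, BR9 and BR10 it was at 127, 121, 95.2 and 104 CPM in UT and 96.1, 104, 103 and 117 CPM in Bch cells, lower in 2 mice and higher in 2. The log2 fold change there was -0.07 (standard error 0.15), and the difference between the sets was -0.35 (95% interval -0.73 to 0.02, adjusted p = 1 in edgeR).

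Mybbp1a, a Myb-binding protein that acts in ribosomal RNA synthesis and processing, was at 73.7, 56.8, 74.0 and 54.3 CPM in UT cells of BR1 to BR4 and at 43.7, 49.6, 54.5 and 64.9 CPM with Bch. It was lower in 3 of the 4 mice and higher in BR4, and the fitted log2 fold change was -0.27 ± 0.16 (standard error, adjusted p = 0.764 in edgeR). At its 3′ end, 15.4% of stretches as long as a read are shared with Spns2, which overlaps it on the opposite strand. Polr1a, the largest subunit of the polymerase, ranged from 5.82 to 19.4 CPM over all sums and its log2 fold change in BR7 to BR10 was 0.34 (standard error 0.33, adjusted p = 0.999 in edgeR). With 1 mouse left out this value ran from 0.08 to 0.50, and the largest log2 ratio of Polr1a in the set, 0.91, was in BR10. Nolc1, a chaperone of snoRNPs, Ddx21, an RNA helicase, and Tcof1, the treacle protein that recruits the polymerase to its genes, reached at most 80.5, 82.5 and 35.8 CPM, and were higher in 1, 3 and 1 of the BR7 to BR10 mice and in 2, 1 and 1 of the BR1 to BR4 mice.

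Among the abundant nucleolar proteins, Npm1 was at 903, 851, 902 and 1085 CPM in UT cells of BR1 to BR4 and at 898, 1075, 1072 and 1104 CPM with Bch. BR1 was nearly equal, BR2 and BR3 were higher with Bch and BR4 differed by little (log2 fold change 0.15, standard error 0.09, adjusted p = 0.774 in edgeR). In BR7 to BR10 Npm1 was at 805, 951, 836 and 937 CPM in UT and 725, 886, 897 and 936 CPM in Bch cells (log2 fold change -0.04, standard error 0.14). Of its 3′-end sequences, 20.1% also occur in other annotated genes. Ncl ranged from 278 to 586 CPM over all sums, and was higher with Bch in 3 of the BR1 to BR4 mice and in 2 of the BR7 to BR10 mice.

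Gnl3, which encodes the nucleolar GTPase nucleostemin and lies on chromosome 14 from 31012433 to 31019152, had the smallest p of the list for the difference between the sets. In UT cells of BR1, BR2, BR3 and BR4 it was at 92.5, 85.8, 82.8 and 124 CPM, and with Bch at 102, 136, 120.1 and 118 CPM, higher in all but BR4 (log2 fold change 0.29, standard error 0.13, unadjusted p = 0.0258, adjusted p = 0.575 in edgeR). In BR7, BR8, BR9 and BR10 it was at 98.2, 103, 114 and 114 CPM in UT and 63.3, 104, 103 and 94.8 CPM in Bch cells, with the lowest value in BR7 (log2 fold change -0.24, standard error 0.15, adjusted p = 0.999 in edgeR). The UT and Bch values overlapped in both sets. The effect in BR7 to BR10 was lower than that in BR1 to BR4 by 0.53 on the log2 scale, with a 95% interval of the difference from -0.93 to -0.14, an unadjusted p = 0.00967 and an adjusted p = 1 in edgeR.

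The box C/D class of snoRNPs is represented by the methyltransferase Fbl (fibrillarin), the core proteins Nop56 and Nop58, and Rrp9, a protein of the U3 snoRNP. All 4 had log2 fold changes below 0 in BR7 to BR10 (median -0.13, -0.20 to -0.04), and 2 of 4 in BR1 to BR4 (median 0.01). In BR10 all 4 were lower, with a median ratio of -0.54. The median ratio was -0.15 in BR7, 0.04 in BR8 and 0.09 in BR9, and without BR10 the log2 fold changes of Fbl, Nop58 and Rrp9 were above 0 (0.09, 0.15 and 0.03). Nop58 was at 229, 298, 273 and 288 CPM in UT cells of BR1 to BR4 and at 202, 284, 232 and 284 CPM with Bch, lower in 4 of 4 mice (log2 fold change -0.12, standard error 0.09, adjusted p = 0.851 in edgeR). A gene lower in 4 of 4 mice of this set was found for 6.86% of all tested genes and for 3 of the 42, Nop58, Dkc1 and Wdr74. The counts of Fbl and Nop56 depended on the technical replicate. Fbl had 329 UMIs in the first replicates and 3453 in the second, a 9.56-fold higher share in the latter, and Nop56 had 1094 and 2128 (1.77-fold). Of their 3′-end sequences, 67.9% (Fbl) and 38.1% (Nop56) also occur in other genes. The share of the other 40 genes in the second replicates was 0.834 to 0.975 times that in the first. Without Fbl and Nop56, a choice made after seeing the data, 15 of the remaining genes were higher in BR7 to BR10 and 19 in BR1 to BR4.

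The box H/ACA snoRNP, which converts uridine to pseudouridine in ribosomal RNA, is represented by the pseudouridine synthase Dkc1 (dyskerin) and its partners Nhp2, Nop10 and Gar1. Among BR7 to BR10, 3 of the 4 had log2 fold changes below 0 (median -0.14), and in BR1 to BR4 2 of 4 (median -0.02). Dkc1 was at 73.2, 96.4, 81.1 and 73.8 CPM in UT cells of BR1, BR2, BR3 and BR4 and at 49.8, 90.1, 77.7 and 62.4 CPM with Bch, lower in 4 of 4 mice with overlapping ranges (log2 fold change -0.24, standard error 0.14, adjusted p = 0.741 in edgeR). For BR7 to BR10 it was at 61.4, 73.9, 73.7 and 92.1 CPM in UT and 63.3, 75.3, 92.1 and 73.6 CPM in Bch cells, higher in 3 of 4.

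Nhp2 had the lowest coefficient of variation of the list over UT cells of BR7 to BR10, 3.84%. It was at 938, 856, 886 and 899 CPM there and at 891, 763, 843 and 818 CPM with Bch, lower in 4 of 4 mice (log2 fold change -0.11, standard error 0.14, adjusted p = 0.999 in edgeR). Nop10 was at 902, 784, 990.1 and 719.7 CPM in UT cells of BR7 to BR10 and at 779, 621, 699 and 942 CPM with Bch, lower in all but BR10. Gar1 ranged from 136 to 246 CPM and was lower in all of these mice but BR9.

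The small-subunit processome contributed 9 genes. Across BR7 to BR10, 7 of the 9 were lower with Bch (median -0.12) and in BR1 to BR4 5 of 9 (median -0.03). Mphosph10, a processome protein that binds the U3 snoRNA complex with Imp3 and Imp4, lies on chromosome 7 from 64376527 to 64392268 and had the smallest p of the list in BR7 to BR10. In BR7, BR8, BR9 and BR10 it was at 55.6, 66.8, 57.8 and 61.9 CPM in UT cells and at 40.1, 50.2, 48.8 and 57.1 CPM with Bch. It was lower in 4 of 4 mice, as were Nhp2 and Wdr43 among the 42 and 5.54% of all tested genes, and the 2 ranges overlapped (log2 fold change -0.30, standard error 0.17, unadjusted p = 0.0914, adjusted p = 0.999 in edgeR). In BR1 to BR4 the same gene was at 44.2, 59.4, 61.7 and 58.9 CPM in UT and 41.3, 48.5, 74.2 and 62.4 CPM in Bch cells, lower in 2 mice and higher in 2.

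Imp4 was at 120.2, 141, 169 and 132 CPM in UT cells of BR7 to BR10 and at 133, 104, 121 and 119.8 CPM with Bch, lower in all but BR7 (log2 fold change -0.24, standard error 0.14, adjusted p = 0.999 in edgeR). Over all 8 mice it was lower in 6 (log2 fold change -0.14, standard error 0.09, adjusted p = 0.906 in edgeR). Its partner Imp3 ranged from 64.4 to 119 CPM and was higher in 2 of 4 mice of each set.

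Wdr43, a WD-repeat protein of the processome, was at 105, 112, 104 and 106 CPM in UT cells of BR1 to BR4 and at 83.1, 95.5, 103 and 107 CPM with Bch. In BR7 to BR10 it was at 81.4, 88.6, 81.4 and 97.6 CPM in UT and 63.3, 87.3, 75.9 and 85.7 CPM in Bch cells. It was lower in 7 of the 8 mice, all but BR4, which 3.72% of all tested genes matched with at least 7 mice lower (log2 fold change -0.15, standard error 0.09, adjusted p = 0.906 in edgeR).

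Nop14, a processome assembly factor on chromosome 5 from 34638536 to 34660148, ran the other way. In UT cells of BR1, BR2, BR3 and BR4 it was at 53.4, 42.9, 35.2 and 56.9 CPM, and with Bch at 61.9, 55.8, 54.5 and 60.9 CPM. In BR7, BR8, BR9 and BR10 it was at 23.9, 24.4, 41.96 and 38.4 CPM in UT and 27.4, 44.5, 44.7 and 38.1 CPM in Bch cells. Nop14 was higher in 7 of the 8 mice, as were 4.34% of all tested genes in at least 7, BR10 was nearly equal, and the largest of its ratios was in BR8. Its log2 fold change was 0.29 in BR1 to BR4, 0.28 in BR7 to BR10 and 0.28 over all 8 mice (standard error 0.13, 95% interval 0.03 to 0.54, unadjusted p = 0.0283, adjusted p = 0.905 in edgeR). Leaving out BR8 brought the value in BR7 to BR10 to 0.09.

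The remaining processome genes were Utp4, Noc4l, Ddx10 and Utp20. Utp4, a subunit needed early in assembly, ranged from 26.6 to 49.6 CPM, Noc4l, a partner of Nop14, from 36.8 to 82.4 CPM, and the helicase Ddx10 from 10.3 to 31.3 CPM, and they were higher with Bch in 2, 1 and 3 mice of BR7 to BR10. Utp20 was at 9.69, 7.71, 8.70 and 9.15 CPM in UT and 6.33, 10.7, 7.23 and 7.79 CPM in Bch cells of this set, which are few UMIs per sum.

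Late maturation of the 40S subunit is represented by Ltv1, Bysl, Tsr1, Nob1 and Rrp12. All 5 had log2 fold changes above 0 in BR1 to BR4 (median 0.13, 0.08 to 0.26) and 4 of 5 in BR7 to BR10 (median 0.08). The highest of the former, that of Rrp12, was -0.15 without BR3, in which it had 0 UMIs in UT, and that of Nob1 was -0.10 without BR2. Among the latter, the value of Ltv1 was -0.06 without BR7 and that of Tsr1 was -0.10 without BR8. Those of Bysl and Rrp12 in BR7 to BR10 stayed above 0 with any 1 mouse left out. Ltv1, a factor of 40S assembly and export, was at 35.5 to 71.3 CPM, Bysl (bystin) at 20.6 to 41.96 CPM and Tsr1, a GTPase-like factor, at 17.3 to 34.4 CPM. Of their 3′-end sequences, 68.1% for Bysl also lie in Ccnd3 and 34.4% for Tsr1 in Srr, both on the opposite strand. Nob1, the nuclease that makes the final cut of 18S ribosomal RNA, was the gene with a log2 fold change below 0 in BR7 to BR10 (-0.25, standard error 0.18), and without BR10 its value was -0.02. Rrp12, an export factor of both subunits, had the largest fitted value of the list in BR7 to BR10 and the lowest level. Its UT values were 1.94, 8.99, 2.56 and 4.88 CPM and its Bch values 5.28, 5.92, 7.68 and 9.95 CPM, higher in all but BR8 (log2 fold change 0.68, standard error 0.44, 95% interval -0.20 to 1.56, adjusted p = 0.999 in edgeR). Rrp12 had fitted values of 0.43 to 1.28 in this set with 1 mouse left out. In BR3 it had 0 UMIs in UT cells, which allows up to 5.38 CPM, and 12.1 CPM with Bch.

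Assembly of the 60S subunit accounts for 10 genes, among them the PeBoW complex of Pes1, Bop1 and Wdr12. Among BR7 to BR10, 4 of the 10 were higher with Bch (median -0.02), and in BR1 to BR4 5 of 10 (median -0.01). Bop1 was at 33.6, 35.0, 22.9 and 37.9 CPM in UT cells of BR1 to BR4 and at 33.4, 47.7, 48.4 and 37.0 CPM with Bch (log2 fold change 0.29, standard error 0.19). For BR7 to BR10 it was at 26.5, 37.9, 32.2 and 37.8 CPM in UT and 29.6, 34.1, 34.3 and 24.7 CPM in Bch cells (log2 fold change -0.16, standard error 0.21). The difference of the effects was -0.46 with a 95% interval from -1.03 to 0.12 and an adjusted p = 1 in edgeR. Pes1 ranged from 67.0 to 116 CPM and Wdr12 from 37.5 to 84.6 CPM, and each was higher in 2 mice of BR7 to BR10.

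Wdr74, a factor of 60S assembly, was at 132, 116, 143 and 117 CPM in UT cells of BR1, BR2, BR3 and BR4. With Bch it was at 126, 109, 113 and 95.4 CPM, lower in 4 of 4 mice (log2 fold change -0.19, standard error 0.11, adjusted p = 0.768 in edgeR). Across BR7 to BR10 it was higher in BR7 and BR8 and lower in BR9 and BR10 (log2 fold change 0.09). Rrs1, which brings the 5S ribosomal RNA particle to the precursor, was higher in 4 of 4 mice of BR1 to BR4, as were Nop14 and Polr1c and 8.22% of all tested genes. Its UT values there were 94.8, 113, 102 and 80.0 CPM and its Bch values 97.1, 118, 109 and 86.9 CPM (log2 fold change 0.08, standard error 0.12, adjusted p = 0.942 in edgeR).

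Ddx18, an RNA helicase, was at 31.0, 41.1, 31.2 and 48.2 CPM in UT cells of BR7 to BR10 and at 41.2, 51.1, 39.7 and 42.4 CPM with Bch, higher in all but BR10 (log2 fold change 0.20, standard error 0.19, adjusted p = 0.999 in edgeR). Of its 3′-end sequences, 48.4% also occur in other genes. Among BR1 to BR4 it ranged from a log2 ratio of -0.95 in BR1 to 0.74 in BR2. Nip7, Nop16, Nop2 and Noc3l make up the rest of the group. Nip7 and Nop16, factors of 60S assembly, lay at 97.0 to 149 and 121 to 193 CPM, Nop2, a methyltransferase of 28S ribosomal RNA, at 13.7 to 38.7 CPM and Noc3l at 3.52 to 19.0 CPM. They were higher with Bch in 2, 1, 2 and 2 of the 4 mice of BR7 to BR10 and in 1, 1, 2 and 2 of BR1 to BR4. None of the 42 was higher in 4 of 4 mice of BR7 to BR10, against 5.84% of all tested genes.

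**Figure D4:**
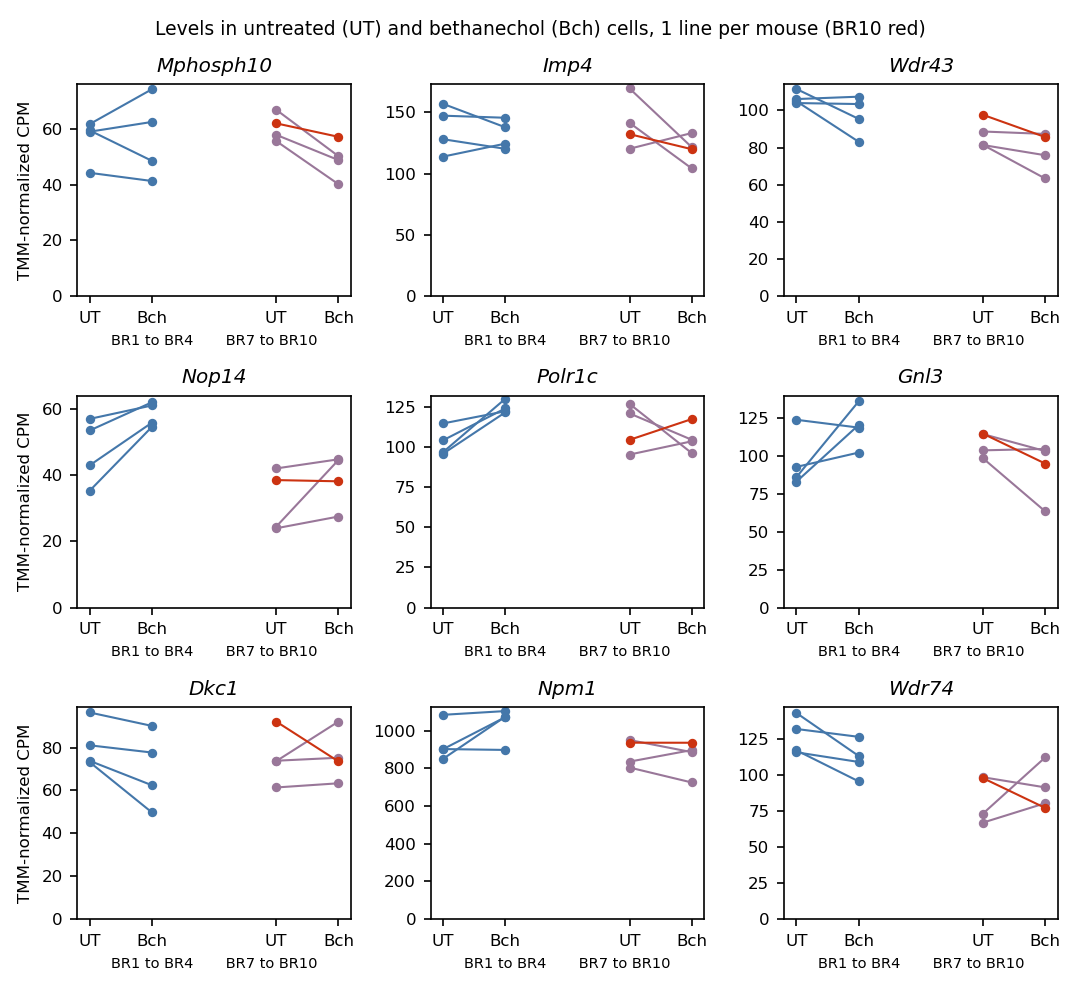
TMM-normalized CPM (y axis, from 0) in UT and Bch cells for 9 genes, 1 line per mouse, with BR1 to BR4 in blue, BR7 to BR9 in mauve and BR10 in red. Mphosph10 is lower with Bch in all 4 mice of BR7 to BR10, Polr1c is higher in all 4 mice of BR1 to BR4, and every UT value of Wdr74 in BR7 to BR10 lies below those of BR1 to BR4.

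**Figure D5:**
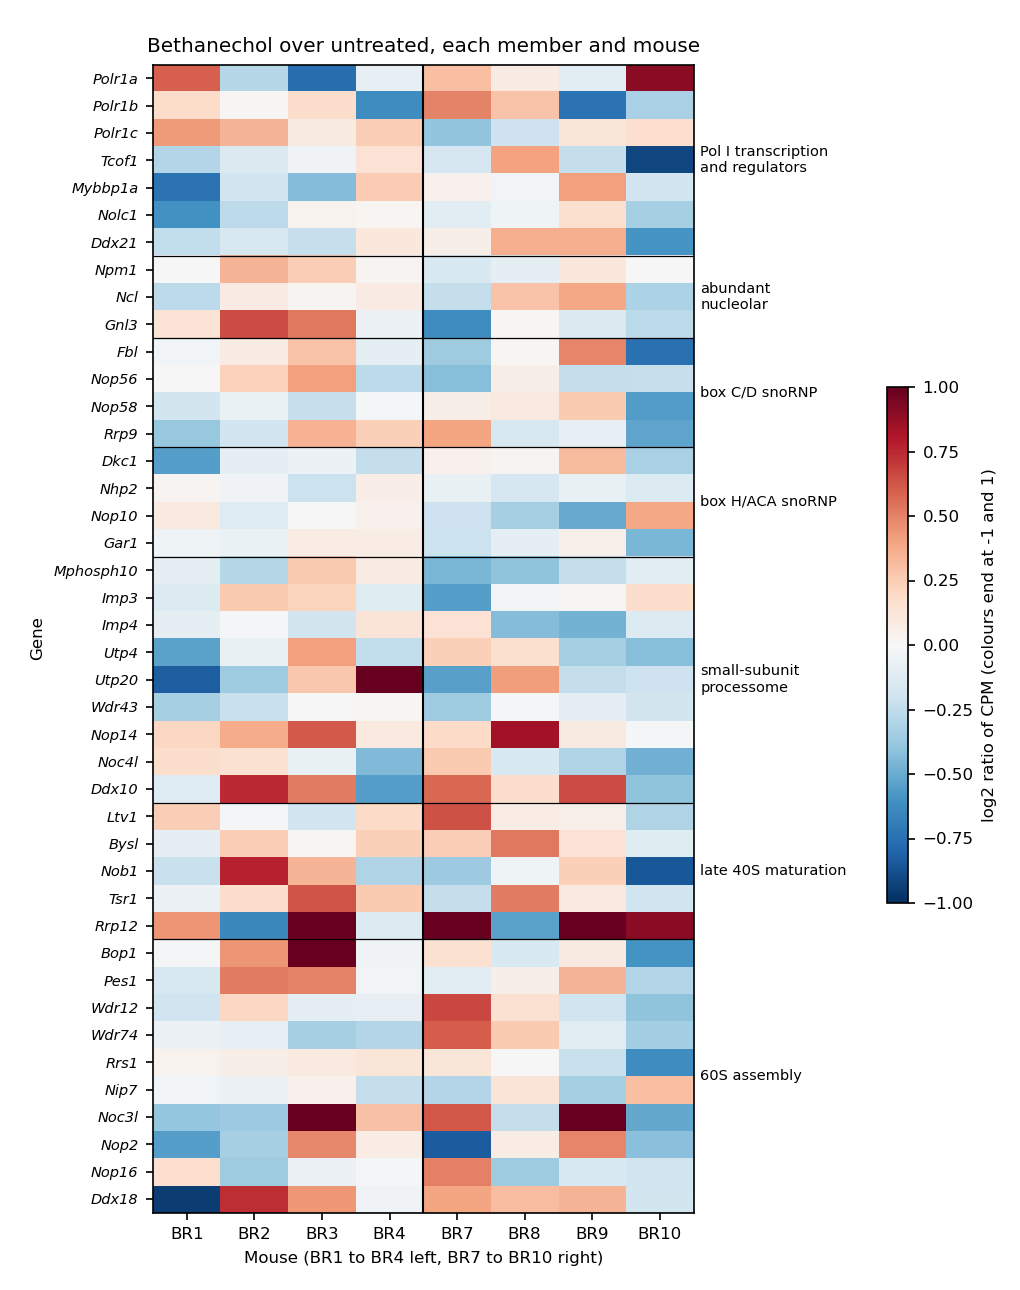
log2 ratio of Bch over UT for each of the 42 genes (y axis, grouped by role) in each mouse (x axis), red where Bch is higher and blue where it is lower, with colours ending at -1 and 1. The BR10 column is blue for 36 of the 42 genes, and no row has 1 colour in all 8 mice.

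Between the UT cells of the sets, where sex, kit and source cannot be told apart, most of the list was lower in BR7 to BR10. Of the 42 genes, 33 were lower in BR7 to BR10 than in BR1 to BR4, with a median log2 difference of -0.23, against 4776 of 9159 tested genes lower and a median of -0.02. At an unadjusted p under 0.05 in edgeR, 11 genes were lower (6.05% of all tested genes were) and 1 was higher (6.66% were), and 1 passed the adjusted threshold, Wdr74 (0.666% of all tested genes passed as lower and 0.972% as higher). Wdr74, on chromosome 19 from 8735827 to 8740624, was at 73.0, 66.8, 98.2 and 97.6 CPM in UT cells of BR7, BR8, BR9 and BR10, all below the 116 CPM of the lowest UT value of BR1 to BR4. Its log2 difference was -0.58 (standard error 0.15, unadjusted p = 0.000500, adjusted p = 0.0374 in edgeR). The adjusted p was above the threshold, between 0.0657 and 0.156, when any of BR1, BR2, BR3, BR4, BR7 or BR8 was left out, and 0.0525 and 0.0603 with the first or the second technical replicate alone.

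Wdr12 (log2 difference -0.49) and Wdr43 (-0.30) also had UT values in BR7 to BR10 below all those of BR1 to BR4, as 3.43% of all tested genes did, and Nop10 (0.44) had values above, as 4.57% did. Nop10 was at 601, 639, 619 and 625 CPM in UT cells of BR1 to BR4, below the lowest value of 719.7 CPM in BR7 to BR10, and its adjusted p was 0.0592 in edgeR. The same adjusted p was found for Nop58 (-0.46). Mybbp1a (-0.60) and Nop14 (-0.58) had adjusted p values of 0.107 and 0.197 in edgeR. Lists of other genes differed between the same UT cells. Of the 10 tested stem and progenitor markers, 8 were lower in BR7 to BR10, 2 of them past the threshold, and their sum was 817 to 875 CPM against 978 to 1141 CPM. Of the 6 tested colonocyte markers, 6 were higher, 2 past the threshold. Of 8 goblet cell markers 6 were higher (median log2 difference 0.48), as were 6 of 8 enteroendocrine markers (median 0.59) and 73 of 87 ribosomal protein genes (median 0.14). Of 14 tested mitochondrially encoded genes 7 were higher and 7 lower (median 0.04), with 2 past the threshold as higher. The part of these differences in the levels of the 42 genes was not tested.

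The other known ribosome biogenesis genes, a list of 139 of which 132 were in the table, were counted in the same way. With Bch, 48 of 125 tested were higher and 77 lower in BR7 to BR10 (median -0.05), and 61 of 127 were higher in BR1 to BR4 (median -0.01), with 0 past the threshold in either. At an unadjusted p under 0.05, 2 were higher and 3 lower in BR7 to BR10 and 6 higher and 4 lower in BR1 to BR4, where 3.78% and 7.72% of all tested genes passed in either direction, so that these counts are near the background. The smallest p in BR7 to BR10 belonged to Ddx55, a helicase of 60S assembly, at 13.6, 11.6, 17.9 and 18.0 CPM in UT and 4.22, 11.1, 11.7 and 6.49 CPM in Bch cells, lower in 4 of 4 mice (log2 fold change -0.83, standard error 0.32, adjusted p = 0.999 in edgeR). For BR1 to BR4 it belonged to Taf1d, a subunit of the factor that loads RNA polymerase I on its promoter. Taf1d was at 99.0, 103, 86.3 and 166 CPM in UT and 122, 171, 136 and 195 CPM in Bch cells of BR1 to BR4, higher in 4 of 4 mice (log2 fold change 0.46, standard error 0.11, adjusted p = 0.116 in edgeR), and in BR7 to BR10 its log2 fold change was -0.11 (standard error 0.15). Its gene hosts snoRNAs. Between the sets, 88 of 125 were lower in UT cells of BR7 to BR10, against 4776 of 9159 tested genes. At an unadjusted p under 0.05 in edgeR, 19 were lower and 3 higher, where 6.05% and 6.66% of all tested genes were. The call of 1 gene as lower, Gnl3l, a paralog of Gnl3, is near the background of 0.666%. Gnl3l was at 18.4, 25.1, 22.9 and 30.8 CPM in UT cells of BR1 to BR4 and at 12.9, 13.5, 10.2 and 12.8 CPM in those of BR7 to BR10 (log2 difference -0.99, adjusted p = 0.0487 in edgeR). Its adjusted p was above the threshold with DESeq2 size factors (0.0502), without the filter on low counts (0.0592), with the second technical replicate alone (0.120) and with any 1 mouse but BR1 left out.

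Of the 87 tested genes of the ribosomal proteins themselves, 81 were higher with Bch in BR1 to BR4 (median log2 fold change 0.31), 68 with an unadjusted p under 0.05 and 0 past the threshold in edgeR. The number in BR7 to BR10 was 44 of 87. A difference from the 42 assembly genes was not tested. In the same comparison 15 of 15 tested mitochondrially encoded genes were higher (median 0.19) and 7 of 7 dissociation genes, the early response genes known to mark tissue handling, were lower (median -0.23), and their part in these values was not tested. The ratios of the ribosomal protein genes differed from mouse to mouse, with medians of 0.20, 0.47, 0.55 and -0.02 in BR1, BR2, BR3 and BR4 and of -0.39, -0.07, 0.00108 and 0.41 in BR7, BR8, BR9 and BR10. Their share of all UMIs was 13.8% to 17.9% in the UT sums. Of the Myc network, 8 of 11 tested genes were higher with Bch in BR1 to BR4 and 5 of 10 in BR7 to BR10, with 0 past the threshold. Myc was at 197, 162, 118 and 146 CPM in UT cells of BR1 to BR4 and at 189, 151, 145 and 159 CPM with Bch. In BR7 to BR10 it was at 96.9, 113, 133 and 143 CPM in UT and 109, 103, 142 and 101 CPM in Bch cells. It was higher with Bch in 4 of the 8 mice, with its lowest ratio in BR10 (log2 fold change 0.05, standard error 0.11, in BR1 to BR4 and -0.10, standard error 0.15, in BR7 to BR10).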

How the data were processed

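The deposited values are raw UMI counts per gene for every library, which the authors made with the Drop-seq pipeline from oligo-dT primed cDNA and did not normalize. The study's methods name GRCm38 with a GENCODE annotation for mouse, while the processing notes list GRCh38. The use of strand and of reads matching several genes is not given in the sources used here. Of the genes, 1520 are blank in the second technical replicate, with at most 4 UMIs per library in the first, and were read as 0, and none is in the list.

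Technical replicates were summed, since they come from the same cells. Counts were filtered with filterByExpr, scaled by TMM and tested in edgeR 4.0.16 (R 4.3.3, limma 3.58.1) by the robust quasi-likelihood test on all genes, with Benjamini-Hochberg adjustment and a threshold of 0.05. DESeq2 1.42.0 was an alternative. Designs held mouse and treatment. Standard errors are the log2 fold change over the square root of F. Log2 ratios per mouse used a prior count of 2. The labels pair UT and Bch sums by mouse. Across genes, the deviations of the pairs from their group means correlated between -0.0203 (BR10) and 0.244 (BR1). Other alternatives concerned size factors, the filter, each technical replicate, left-out mice and the removal of mitochondrial and ribosomal protein genes. The steps were tested on simulated data.

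Values are shown per mouse for the genes with the smallest p in each comparison, the highest and lowest levels, and any past the threshold, with further members named where they moved alike in all mice or did not overlap. The 42 genes and the other lists were chosen with earlier results of these data known. Shared 3′-end sequences of 65 bases, the read length, were sought in GENCODE transcripts of GRCm38.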

Additional observations from a re-analysis of the deposited data

Results flagged for a closer look

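Over 104 groups of 4 sums or ratios, 4 values lay far from the other 3 mice by Dixon's test at the 95% level, a test that chance alone passes in about 1 of 20 groups. The median log2 ratio of the 42 genes was -0.30 in BR10, while BR7, BR8 and BR9 had 0.02 to 0.05. The ratio of Ddx18 was -0.18 in BR10 and 0.31 to 0.40 in the other mice of the set. In UT cells of BR1 to BR4, Mphosph10 was at 44.2 CPM in BR1 and at 58.9 to 61.7 CPM in the others. In Bch cells of this set, Npm1 was at 898 CPM in BR1 and at 1072 to 1104 CPM in the others.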

How the results depend on the processing

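Under every alternative, 0 of the 42 genes passed the threshold for Bch in either set, over all mice or for the difference between the sets, and the settings that changed other results are as follows. In BR7 to BR10, leaving out 1 mouse gave 12 to 24 higher members (24 without BR10) and 0 to 4 called genes of all tested. In BR1 to BR4, where 2 genes of all tested were called, the count was 0 without the replicate block, 14 with DESeq2, 88 without the filter on low counts, 9 with the first technical replicate alone, 0 with all sums in 1 fit, and 0 to 19 with 1 mouse left out. For the difference between the sets, the count was 1 without the filter, and 13 to 24 members were higher with 1 mouse left out (13 without BR8). Over all 8 mice, 15 genes were called without the filter, 1 with the first technical replicate alone, and 0 to 1 with 1 mouse left out. Between UT cells of the sets, 150 genes of all tested were called, 187 with DESeq2, 234 without the filter and 74 to 210 with 1 mouse left out. The members called there numbered 1, then 2 with DESeq2, 2 without the filter, 0 with the first technical replicate alone, 3 without mitochondrial and ribosomal protein genes and 0 to 4 with 1 mouse left out, and 5 members were higher with the second technical replicate alone. In fits that dropped a single mouse, 24 of the 42 genes changed sign at least once in BR7 to BR10 and 22 of the 42 in BR1 to BR4. Sign changes given above are those of Fbl, Nop58, Rrp9, Ltv1 and Tsr1 in BR7 to BR10 and of Rrp12 and Nob1 in BR1 to BR4. The rest are listed only for genes whose own log2 fold change over all mice of a set is given above. In BR7 to BR10, Polr1c (0.0095) and Bop1 (0.081) changed sign with the second technical replicate alone. With 1 mouse left out, the values that changed sign there were those of Polr1c (-0.14 to 0.032), Npm1 (-0.086 to 0.0066), Bop1 (-0.25 to 0.023), Wdr74 (-0.063 to 0.24), Taf1d (-0.26 to 0.086) and Myc (-0.18 to 0.044). In BR1 to BR4 the value of Myc, likewise given above, ran from -0.0076 to 0.10. The causes were not tested. With 4 mice a set and 557512 to 4050342 UMIs per sum, the 95% interval lay within 1.5-fold for 30 of the 42 genes in BR7 to BR10 and 33 in BR1 to BR4.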
